A study of Mus musculus with 2 samples.

Results

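Core pluripotency genes of mouse ESCs were measured with 1 Affymetrix mouse exon array of Smad3-/- ESCs and 1 of WT ESCs. They were chosen by name, as every probe set whose platform gene symbol was exactly Pou5f1, Sox2, Nanog, Sall4, Zfp42, Nr0b1, Utf1, Fgf4, Gdf3 or Tdgf1-ps1. Probe sets were found for 9 of these 10 genes, 55 of the 229581 probe sets in the table and 9 of its 16380 genes. Under the symbol Tdgf1-ps1, a pseudogene of the Nodal co-receptor gene Tdgf1, there was no probe set, and it was not analysed here. Both ESC samples were labelled as of C57BL/6 background and grown with LIF and 2i, which is the pair of inhibitors CHIR99021 (against Gsk3) and PD0325901 (against Mek), and neither had a further treatment. Per the methods, the lines had been passaged off their feeder cells onto gelatin. The number of clones behind each genotype is not stated in the sources used here.

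ESCs keep the ability to form every tissue of the embryo through a small circuit of transcription factors. Oct4 (the product of Pou5f1) and Sox2 bind DNA side by side, Nanog joins them at many of the same sites, and the trio activates its own genes as well as genes such as Utf1 and Fgf4. Culture with 2i and LIF holds mouse ESCs in a naive state in which this circuit is on and Fgf4 signaling through Mek is blocked. Smad3, the transcription factor of Activin, Nodal and TGF-beta signals, is known to share binding sites with Oct4, so the comparison asks how far the circuit's own transcripts differ when Smad3 is missing.

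Promoters were searched for letters that these factors are known to bind. RefSeq promoter sequences (GRCm38.p6, from 250 bases before to 50 after a start) were held for 7 of the 9 genes, in 9 windows. The composite element, written here as TTGT, any base, ATGCAA and searched on both strands, occurred in 0.149% of 32851 promoters and, among these genes, in both windows of Nanog, which hold the same site. The octamer ATGCAAAT to which Oct4 binds occurred in 1.74% of promoters and in the window of Zfp42. A Sox site, CATTGT, which overlaps the composite element in Nanog, occurred in 12.6% of promoters and in windows of Nanog and Pou5f1. The Smad palindrome GTCTAGAC occurred in 0.213% of promoters and in none of the 9 windows. A match describes these letters only. The stretches around the composite element of Nanog (chr6:122707385-122707455, + strand) and the octamer of Zfp42 (chr8:43307158-43307225, - strand) are shown because these genes lie at opposite ends of the gene differences given below, and capitals mark the matched letters.
Nanog: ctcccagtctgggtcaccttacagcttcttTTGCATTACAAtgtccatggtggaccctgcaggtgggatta
Zfp42: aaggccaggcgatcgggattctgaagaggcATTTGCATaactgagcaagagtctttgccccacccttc

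No core pluripotency gene passed 1.5-fold, the threshold of the methods, in either direction. The gene differences ran from 0.0 for Nanog to 0.16 for Zfp42 on the log2 scale, and their median was 0.10, against a median of 0.035 over all 16380 genes. Of all genes 1.14% were more than 1.5-fold higher in the array labelled Smad3-/- and 0.69% more than 1.5-fold lower, which is 186 and 113 genes (145 and 138 after quantile normalization). A gene value here is the median over the gene's probe sets of the log2 signal in the array labelled Smad3-/- minus that in the WT array, so a positive value means higher in the array labelled Smad3-/-. With 1 array for each genotype there is no replicate, no test was run, and the spread given for a gene is an SD between its probe sets within 1 pair of arrays.

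The label of the knockout has a limit that touches every signed value. Smad3 itself had 16 probe sets. One of them, 4594059, read 6.79 in the array labelled Smad3-/- and 9.29 in the WT array, whereas 7 were more than 1.5-fold higher in the array labelled Smad3-/- and 8 lay within 1.5-fold. A probe set outside the deleted part of the gene checks nothing, and the deleted part is not stated in the sources used here, so the arrays are called by their labels throughout. The gene signal of Smad3 was 10.32 in the array labelled Smad3-/- and 9.785 in the WT array, and the gene value was 0.375. From its microarray the study instead reports a marked reduction of Smad3, as of Lefty1, in Smad3-/- ESCs. Here only probe set 4594059 of Smad3 was more than 1.5-fold lower. Lefty1, an Activin and Nodal target that the study names, was lower at all 7 probe sets, with a median signal of 8.35 in the array labelled Smad3-/- and 9.40 in the WT array.

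**Figure D1:**
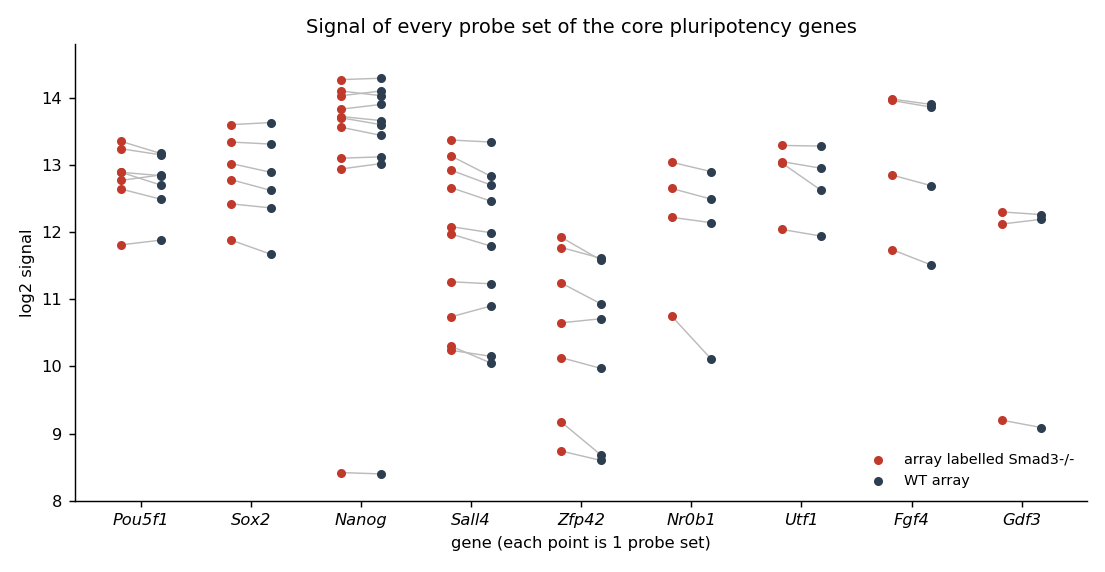
Log2 signal (vertical axis) of all 55 probe sets of the 9 measured genes, in the array labelled Smad3-/- (left points) and in the WT array (right points), with a line joining the values of a probe set. The lines are close to level, and the largest slope is that of 1 Nr0b1 probe set, at 10.75 in the array labelled Smad3-/- and 10.11 in the WT array.

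The genes that mark ESCs were bright in both arrays. Of the 55 probe sets, 53 lay above the median of the array labelled Smad3-/- (8.89) and 52 above the median of the WT array (8.80). When all probe sets were split into 10 equal groups by mean signal, 39 of the 55 fell in the brightest group, which began at 11.83, and none lay below the fifth group from the dim end. Probe sets differ in how well they bind their target, so the genes are not ranked by signal. Across the 55 probe sets the arrays correlated with r = 0.995, a description in which the points share 2 arrays and most of the range comes from the probe sets themselves.

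Pou5f1 encodes Oct4, the POU-domain factor without which the inner cell mass loses its pluripotency. Its 7 probe sets read from 11.81 to 13.35 in the array labelled Smad3-/- and from 11.88 to 13.17 in the WT array. The highest difference belonged to probe set 4541584, at 12.89 in the array labelled Smad3-/- and 12.70 in the WT array, and the lowest to 4886610, at 12.77 in the array labelled Smad3-/- and 12.85 in the WT array. Differences were positive at 5 probe sets and negative at 2. The gene value was 0.09 (SD 0.11 between probe sets), a fold of 1.06, so the probe sets scattered by more than the median departed from 0.

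Sox2, an HMG-box factor and the partner of Oct4, had 6 probe sets. They read from 11.88 to 13.60 in the array labelled Smad3-/- and from 11.67 to 13.63 in the WT array. The dimmest, 4431153, was also the one that differed most, at 11.88 in the array labelled Smad3-/- and 11.67 in the WT array, and the brightest, 4449237, was the only one with a negative difference, at 13.60 in the array labelled Smad3-/- and 13.63 in the WT array. The gene value was 0.095 (SD 0.09 between probe sets). Sox2 lies inside the annotated span of the non-coding RNA gene Sox2ot, whose own 10 probe sets had a median signal of 6.38 in the array labelled Smad3-/- and 6.045 in the WT array. The 2 transcripts were measured by separate probe sets, and whether any probe set of Sox2 also reads Sox2ot was not tested.

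Nanog, the homeodomain factor that lets ESCs renew without LIF when it is in excess, was the gene with the least difference. Of its 10 probe sets 5 were positive and 5 negative, between -0.08 and 0.12. Probe set 4941617 gave the highest, with 13.56 in the array labelled Smad3-/- and 13.44 in the WT array. The lowest came from 4795735, with 12.94 in the array labelled Smad3-/- and 13.02 in the WT array. The gene value was 0.0 (SD 0.07 between probe sets). A single probe set, 4463588, stood far below the rest, at 8.42 in the array labelled Smad3-/- and 8.40 in the WT array, while the other 9 lay between 12.94 and 14.27 in the array labelled Smad3-/- and between 13.02 and 14.29 in the WT array. RefSeq lists the pseudogenes Nanog-ps1 and Nanog-ps2, as well as Pou5f1-rs9 and Gm2071 for Pou5f1 and Zfp42-ps1 for Zfp42, and whether probe sets of the parent genes also detect them was not tested.

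**Figure D2:**
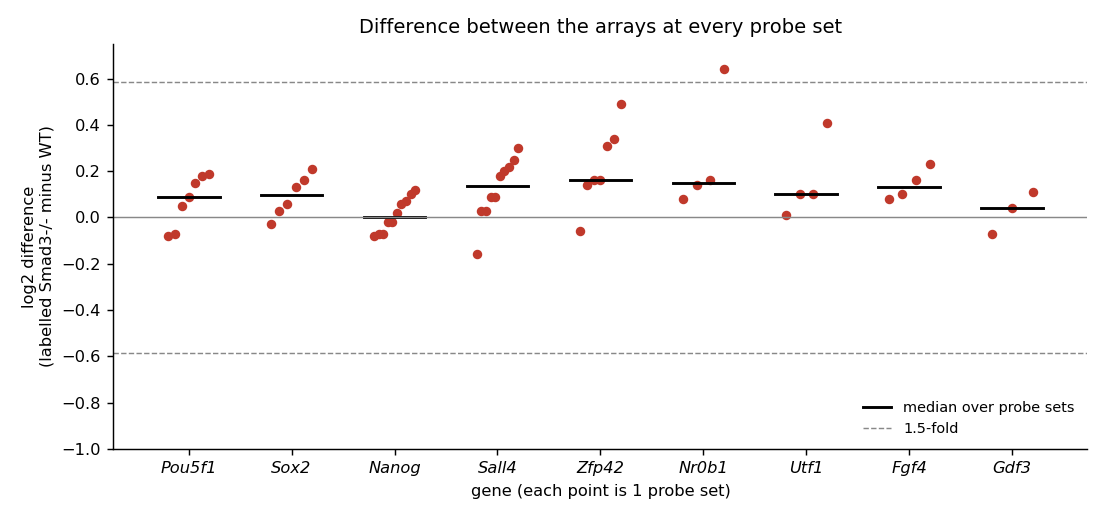
Log2 difference (vertical axis), array labelled Smad3-/- minus WT array, at each of the 55 probe sets, by gene, with the median over probe sets as a bar and 1.5-fold as dashed lines. Nanog is spread evenly around 0, all probe sets of Nr0b1, Utf1 and Fgf4 lie above 0, and 1 point of Nr0b1 (0.64) is past 1.5-fold.

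Among the other nuclear factors the differences leaned to positive values. Sall4, a zinc finger protein of the Spalt family that sustains Pou5f1 expression, was positive at 9 of 10 probe sets. Its signals ran from 10.24 to 13.37 in the array labelled Smad3-/- and from 10.05 to 13.34 in the WT array, and its probe-set differences from -0.16 (5589487) to 0.30 (4745211). The gene value was 0.135 (SD 0.14 between probe sets), again as wide as the median itself. Sall4 overlaps the annotated gene Gm14261, and whether any probe set of Sall4 also reads Gm14261 was not tested.

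Zfp42 encodes Rex1, a zinc finger relative of Yy1 whose expression marks naive ESCs. It had the highest gene value, 0.16 (1.12-fold), with an SD of 0.18 over its 7 probe sets. The largest difference was at 4523335, with 9.17 in the array labelled Smad3-/- and 8.68 in the WT array. It was among the dimmer probe sets, where differences between the arrays scatter more. Next came 5198876, with 11.92 in the array labelled Smad3-/- and 11.58 in the WT array, and 4536169, with 11.24 in the array labelled Smad3-/- and 10.93 in the WT array. Only 5288424 was negative, with 10.65 in the array labelled Smad3-/- and 10.71 in the WT array, and since it was the probe set of middle rank in both arrays, the difference of the medians for Zfp42 was -0.06, opposite in sign to the median of the differences.

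Nr0b1, also known as Dax1, is an X-linked orphan nuclear receptor that binds Oct4 and restrains it. It held the sole probe set past 1.5-fold, 4690653, at 10.75 in the array labelled Smad3-/- and 10.11 in the WT array, which is 1.56-fold higher. The other 3 differed by 0.08 to 0.16, so the gene value was 0.15 (SD 0.26 between probe sets), and 0.14 without 4690653. This probe set was the dimmest of the gene, and in its group by mean signal 1.83% of all probe sets were more than 1.5-fold higher.

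Utf1, a chromatin-bound factor that needs Oct4 and Sox2 for its expression, was positive at all 4 probe sets. Probe set 4770825 read 13.03 in the array labelled Smad3-/- and 12.62 in the WT array, a difference of 0.41, whereas the remaining 3 differed by 0.01 to 0.10. The gene value was 0.10 (SD 0.18 between probe sets), and it was 0.10 too without 4770825.

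The members include a pair of secreted ligands. Fgf4, the growth factor through which ESCs push one another toward commitment, was positive at all 4 probe sets, by 0.08 to 0.23. Its brightest probe set, 4705449, read 13.98 in the array labelled Smad3-/- and 13.90 in the WT array, and its dimmest, 5444551, read 11.74 in the array labelled Smad3-/- and 11.51 in the WT array. With a gene value of 0.13 and an SD of 0.07 between probe sets, it was the measured member with the narrowest spread. Gdf3, a TGF-beta family ligand related to Nodal, had 3 probe sets. These read 12.12, 9.20 and 12.30 in the array labelled Smad3-/-, against 12.19, 9.09 and 12.26 in the WT array. The first of them was negative and the others positive, and the gene value was 0.04 with an SD of 0.09.

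Taken probe set by probe set, 1 of the 55 was more than 1.5-fold higher in the array labelled Smad3-/- (1.82%) and 0 were more than 1.5-fold lower. Over all probe sets these shares were 6.06% and 3.77%. In the brightest of the 10 groups, where 39 of the 55 lie, they were 0.162% and 0.144%. None of those 39 was past 1.5-fold, with differences from -0.08 to 0.41. The 1 probe set past it, of Nr0b1, lay in a dimmer group, in which 1.83% of all probe sets were more than 1.5-fold higher. A difference of at most 0.10 in size was found at 29 of the 55, of at most 0.20 at 45, and of more than 0.30 at 5, which belonged to Zfp42 (3), Nr0b1 and Utf1. The SD over the 55 differences was 0.15, as was that over the 22895 probe sets of the brightest group, against 0.54 in the dimmest group. The 55 span several groups, and the SD was 0.11 over the 39 in the brightest group and 0.20 over the other 16.

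**Figure D3:**
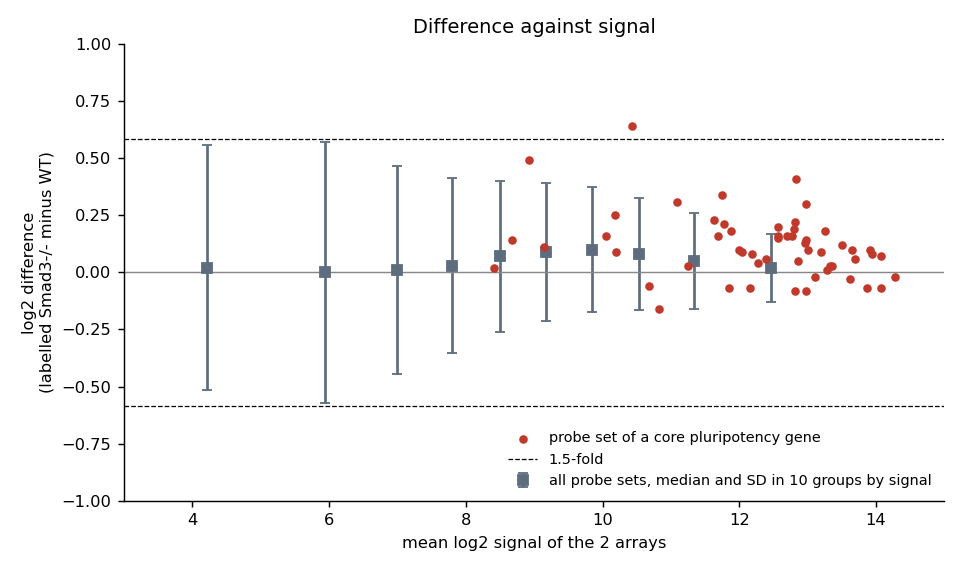
Log2 difference, array labelled Smad3-/- minus WT array (vertical axis), against the mean log2 signal of the 2 arrays (horizontal axis) for the 55 probe sets, over the median and SD of all probe sets in each of the 10 groups by signal (squares and bars). The SD narrows to 0.15 in the brightest group, where 39 of the 55 probe sets lie.

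Small as they were, the differences were more often positive than negative. Of the 55 probe sets 44 (80.0%) were higher in the array labelled Smad3-/- and 11 (20.0%) lower, whereas of all probe sets 56.9% were higher, and of the brightest group 53.6%. In that group 30 of the 39 member probe sets were higher, with a median of 0.09 against 0.02 for the whole group. Among the other 16, 14 were higher, with a median of 0.16. These came from groups 5 to 9 from the dim end, where between 58.6% and 64.8% of all probe sets were higher, with group medians of 0.05 to 0.10. When the trend of the difference on mean signal was subtracted, 42 of 55 (76.4%) were above 0, against 114901 of all 229581 probe sets, and their median was 0.08. Probe sets of a gene share its transcript and all 55 share the same 2 arrays, so these counts are no measure of how often such a lean would come from RNA input or hybridization, which was not tested.

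Around the core genes stood 21 measured genes of the wider pluripotency network, of 28 listed. None was past 1.5-fold, beside 1.14% of all genes higher and 0.69% lower. At such shares, lists of this size, here and below, would hold few such genes or none. Of the 21 genes 18 were above 0 and 3 below, whereas 57.5% of all genes were above 0. The list median was 0.13, above the 0.035 of all genes, and 0.09 against -0.01 with the trend on mean signal subtracted. The highest value was that of Foxd3, a forkhead factor, with 10.26 in the array labelled Smad3-/- and 9.82 in the WT array and a difference of 0.35. Klf2, Esrrb and Tbx3, factors of the naive state, each had 0.23, with all but 1, 2 and 1 of their 6, 15 and 19 probe sets above 0. The RNA-binding protein gene Lin28a had the lowest value, with 9.895 in the array labelled Smad3-/- and 10.32 in the WT array, a difference of -0.33 that was negative at all 8 probe sets. Dppa3 (-0.085) and Zfp281 (-0.07) were the other genes of the list below 0. For Rif1, a telomere-associated protein gene, the study reports the top rank among upregulated genes of its microarray, and higher levels by real-time PCR and western blot. By the median used here, Rif1 had a gene value of 0.025, with 22 of its 40 probe sets above 0 and 17 below. Its probe set 5037048 read 10.66 in the array labelled Smad3-/- and 3.96 in the WT array, a difference of 6.70, while the other 39 lay between -0.40 and 1.11. That WT reading is near the median mean signal of the dimmest of 10 groups by signal (4.22), whereas the gene signal of Rif1 in the WT array was 11.785. The cause of the low reading was not tested. In all, 7 of the 40 were more than 1.5-fold higher and 0 more than 1.5-fold lower.

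Genes for proteins that bind Oct4 or Nanog had a median of 0.055, near the 0.035 of all genes, but most were above 0. All 20 were measured and none passed 1.5-fold. Of them 15 were above 0 and 3 below, whereas 57.5% of all genes were above 0. All 20 had signals above the array medians, and with the trend on mean signal subtracted the list median was 0.02, against -0.01 for all genes. Arid3b, a DNA-binding protein of the ARID family, had 0.405, with single probe sets from -0.40 to 1.67, and the next were Arid1a and Wdr5 with 0.17 each and Parp1 with 0.15. The closest relatives of the core genes, of which 13 of 17 were measured, had a median of 0.02 and none past 1.5-fold. Here Sox15, which can stand in for Sox2 in ESCs, had 0.25 and was positive at all 5 probe sets, Sall2 had -0.22, Sall3 -0.20 and Pou2f1 0.18. The signals of Sall2 and Sall3 were below the array medians. Tdgf1 itself, the parent gene of the pseudogene without a probe set, was positive at all 7 probe sets by 0.03 to 0.25, with a gene value of 0.06.

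Of the receptors and co-receptors that could take up Fgf4 or Gdf3, 13 of 14 were measured, and the median was 0.03. None was past 1.5-fold, beside 1.14% of all genes higher and 0.69% lower. Fgfr1, the main Fgf receptor of ESCs, had a signal of 11.075 in the array labelled Smad3-/- and 11.04 in the WT array and a difference of 0.03. The heparan sulfate proteoglycan gene Sdc4 had 0.38, the Activin and Nodal receptor gene Acvr1b had 0.33, Gpc3 had -0.21, and Fgfr3 and Fgfr4 had -0.10 and 0.10. The signals of Fgfr3 and Fgfr4 were below the array medians. Tdgf1 and Cfc1 stand both here and among the relatives.

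**Figure D4:**
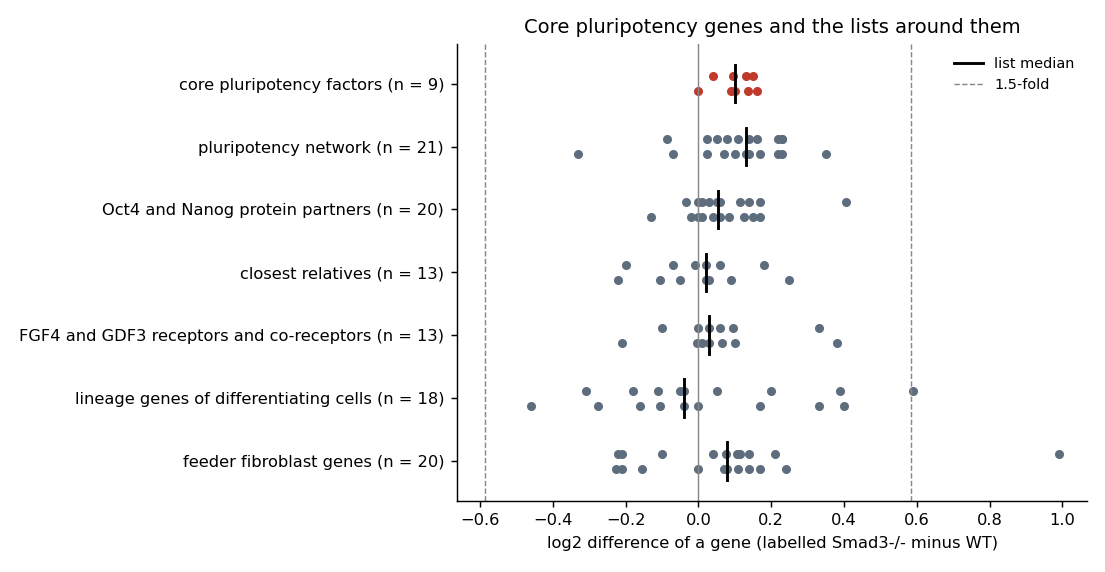
Log2 difference of each gene (points), array labelled Smad3-/- minus WT array, in the core pluripotency genes and 6 gene lists around them, with list medians as bars and 1.5-fold as dashed lines. The core genes span 0.0 to 0.16, the narrowest range, and the 2 points past 1.5-fold are Krt18 (0.59) and Pdgfrb (0.99).

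Markers of other cells were read beside the core genes. All 18 lineage genes of differentiating cells were measured, of which 5 had a gene signal above the array median in each array, and their median was -0.04. Krt18, a keratin of simple epithelia, was the only one past 1.5-fold, beside 1.14% of all genes more than 1.5-fold higher. It had 9.68 in the array labelled Smad3-/- and 9.09 in the WT array and a difference of 0.59, and its partner keratin Krt8 had 0.40. The mesendoderm gene Mixl1 had -0.46 and the eye and brain gene Pax6 0.39, both at signals below the array medians. The summed signal of the list was 12.93 in the array labelled Smad3-/- and 12.70 in the WT array on the log2 scale. Of 20 feeder fibroblast genes 3 (Fn1, Vim and Mmp2) were above the array median in each array, and the list had a median of 0.0775. Its summed signal was 14.41 in the array labelled Smad3-/- and 14.33 in the WT array. Fn1 alone had 13.58 in the array labelled Smad3-/- and 13.46 in the WT array, so the sum mostly follows this gene. Pdgfrb, a growth factor receptor of fibroblasts, had 0.99, with single probe sets from -0.86 to 3.07. S100a4 had 0.24 from 3 probe sets between -0.98 and 0.44, whose mean was -0.10. The collagen genes Col3a1 and Col1a1 had -0.225 and -0.22. The signals of S100a4, Col3a1 and Col1a1 were below the array medians. The 6 genes of this list below 0 were all collagen genes, up to -0.10 for Col6a2. Of the 20 genes 13 were above 0, beside 57.5% of all genes. The list median was -0.155 with the brightest probe set of each gene and -0.18 without dim probe sets. The part of such cells in the small differences of the core genes was not tested. In bulk RNA, fewer cells of a kind and less RNA in each cell cannot be told apart.

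How the probe sets of a gene are combined set the size of these small values. The brightest probe set of each gene gave a median of 0.04 over the 9 genes, and Sox2 then had -0.03 and Zfp42 0.34. In that setting the median of all genes moved down too, from 0.035 to -0.03, so the median of the 9 genes stayed above it. Sox2 was level with the median of all genes, and Nanog (-0.02) and Utf1 (0.01) lay close to it. Pou5f1, Sall4, Nr0b1, Utf1 and Fgf4 stayed above 0 under all 9 settings tried, and no setting brought any of the 9 genes past 1.5-fold.

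**Figure D5:**
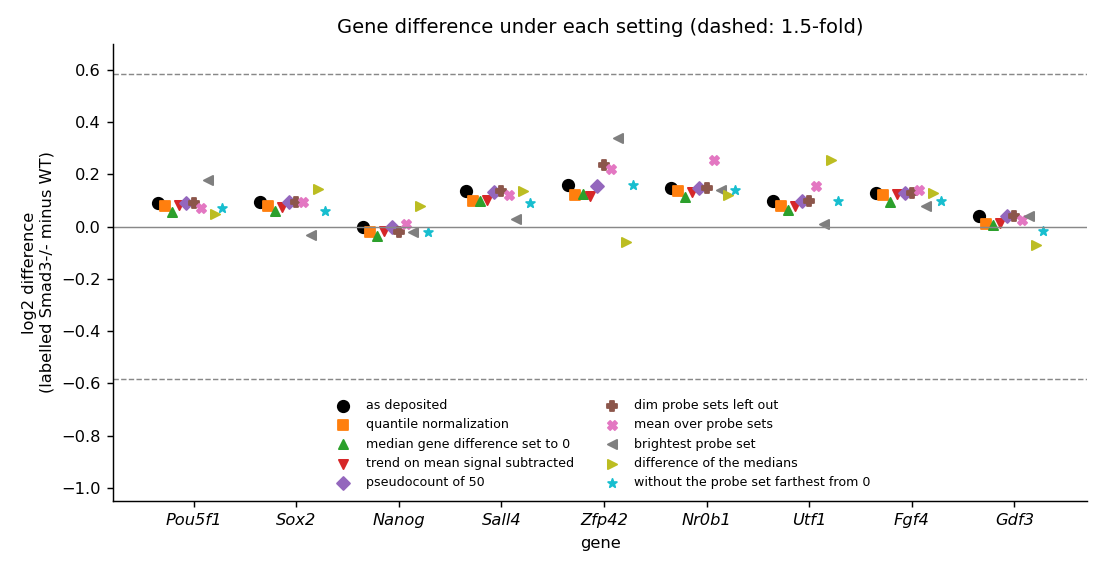
Log2 difference (vertical axis), array labelled Smad3-/- minus WT array, of each core pluripotency gene as deposited (black circles) and under 9 other settings (other markers), with 1.5-fold as dashed lines. All values lie between -0.07 (Gdf3, difference of the medians) and 0.34 (Zfp42, brightest probe set).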

How the data were processed

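RNA of ESCs of each genotype was hybridized to 1 array. The authors deposited a log2 signal for each of 229581 probe sets. The submitters' processing notes name Affymetrix Expression Console and mm8, and Partek and Genespring stand in the methods. Background correction, normalization and software versions were not given in the sources used here. Which base the logarithm has was read from the values, the highest of which is 31433 on a linear scale, under the 65536 levels of a 16-bit scanner.

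The platform annotation gave 1 gene symbol to 209279 probe sets, several to 4446 (not used) and none here to 15856. Of 16380 symbols 14190 were current in RefSeq (GRCm38.p6), 2145 older ones matched 1 gene and 45 did not match. That build is not mm8 and served for names, gene order and promoter sequences. Genes past 1.5-fold exceeded 0.585 on the log2 scale. Members and lists were chosen with earlier results of these data known. Named genes were all members, the 4 largest differences of each list (with ties), any gene past 1.5-fold, and Smad3 and Lefty1. Rif1, Fgfr1, Tdgf1, Dppa3, Zfp281, Fn1, Vim, Mmp2 and Sox2ot were named after their values were seen. Alternatives were quantile normalization, centring, a trend on mean signal (loess, fraction 0.3), a pseudocount of 50, no dim probe sets, the mean or the brightest probe set, and 2-fold for the probe-set counts. With 2 arrays no test was possible, and their number limits the precision. The steps were tested on simulated data. The software was matplotlib 3.10.9, statsmodels 0.14.6, pandas 2.3.3 and numpy 2.4.6 under Python 3.11.15.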

Additional observations from a re-analysis of the deposited data

How the results depend on the processing

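No paired analysis was possible because there was 1 array per genotype. A gene value counted as kept within the SD over its probe sets, a list median within the SD over its genes and a count within 1.5 times, yardsticks chosen after seeing the data. By these, 148 values were kept and 10 moved. Many of these spreads were as wide as the values, so a kept value could change sign. The feeder fibroblast median did so, from 0.0775 to -0.18 without dim probe sets. Counts of 0 that stayed 0 are also among those kept, so the tally does not measure how stable the small values are. The count of 1 probe set higher by more than 1.5-fold became 0 after quantile normalization, after subtraction of the trend and at 2-fold, where the last is by construction and for the others the cause was not tested. No core pluripotency gene passed 1.5-fold in either direction under any of the 7 alternatives. Their median of 0.10 ranged from 0.04 with the brightest probe set to 0.12 with the mean, and that of the closest relatives was -0.12 with the brightest probe set, against 0.02. The difference of the medians and the omission of the farthest probe set were settings chosen after seeing the data. The first gave 0.08 for Nanog, -0.06 for Zfp42 and -0.07 for Gdf3, and the second -0.015 for Gdf3. Nanog was below 0 in 7 of 9 settings. Over all genes the 186 higher and 113 lower became 83 and 27 with the pseudocount and 324 and 419 with the brightest probe set. Centring on the median of all genes takes 0.035 off every value. That median itself was -0.03 with the brightest probe set and -0.02 after quantile normalization, so a value below 0 there can still lie above all genes. The median of Oct4 and Nanog protein partners changed sign with the brightest probe set (-0.015) but stayed above that of all genes. The receptors and co-receptors were below 0 in 3 of 7 settings (-0.07 with the brightest probe set). Feeder fibroblast genes had -0.155 with the brightest probe set and -0.18 without dim probe sets, and the relatives were below 0 in 6 of 7 settings. With the brightest probe set, receptors and co-receptors, feeder fibroblast genes and relatives lay below all genes.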

Other observations

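Gene order on the chromosomes was not used to choose the core pluripotency genes. For each of the 9, the nearest 2 measured genes on each side in the order of GRCm38.p6 were read out, which gave 33 further genes. Of these 16 were above 0 and 16 below (57.5% of all genes were above 0), with a median of 0.0 and a range of -0.355 to 0.42. None was past 1.5-fold, beside 1.14% of all genes higher and 0.69% lower. Gdf3 and Nanog lie close together, and the measured order there is Apobec1, Gdf3, Dppa3, Nanog and Slc2a3. Apobec1, an RNA-editing enzyme, was positive at all 10 probe sets, with a median signal of 10.325 in the array labelled Smad3-/- and 9.90 in the WT array and a difference of 0.42. The others differed by 0.04 (Gdf3), -0.085 (Dppa3), 0.0 (Nanog) and 0.09 (the glucose transporter gene Slc2a3). At the Fgf4 locus the cyclin D1 gene Ccnd1 was negative at all 6 probe sets, with 11.13 in the array labelled Smad3-/- and 11.46 in the WT array and a difference of -0.355, while Fgf4 itself had 0.13 and Fgf3 and Fgf15 had 0.035 and -0.045. These genes were named after their values were seen, and with 1 array per genotype none of the differences has a replicate check.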
